A study of Homo sapiens with 2 samples.

Results

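The peaks described here are those that TRF2 chromatin immunoprecipitation gave in the centromere bands of chromosomes 11 and 17 in HCT116, an established human colorectal carcinoma cell line. A peak belongs to the set when its summit lies in the cytogenetic centromere band of chromosome 11 (p11.11 and q11, 51.0 to 55.8 Mb) or of chromosome 17 (p11.1 and q11.1, 22.7 to 27.4 Mb) on the human assembly hg38. There were 910 such peaks among the 24258 of the authors' list (3.75%), 101 on chromosome 11 and 809 on chromosome 17. The study had 1 library of DNA immunoprecipitated with 5 μg of an antibody to TRF2 from 100 μg of chromatin, and 1 input library of the same kind of chromatin without antibody. Both came from HCT116 cells fixed with 1% formaldehyde 72 h after plating, and the chromatin was sheared to 300 to 400 bp. The name of the peak list carries a control siRNA tag that the labels do not mention, so whether the cells had been transfected is not known here. With 1 library of each kind no difference could be tested over replicates, and the intervals below are exact 95% intervals that cover counting error only. They treat peaks as independent of each other.

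TRF2, encoded by TERF2, is a subunit of shelterin, the protein complex that coats telomeres and keeps the cell from treating chromosome ends as breaks, and it binds double-stranded telomere repeats directly. Centromeres are built on alpha satellite, a tandem repeat whose monomers are joined into higher-order units that repeat almost without change over megabases. Chromosomes 1, 11, 17 and X carry related arrays derived from an ancestral unit of pentamers, which is why the bands of 11 and 17 are set side by side here and read beside those of 1 and X. In hg38 such arrays are largely modelled sequence, so a position within one does not give the true order of repeats in the cell. The DNA sequence of the peaks was not analysed here, so whether each peak lies on alpha satellite was not checked.

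The 2 centromeres differed in the number of peaks. The band of chromosome 17 held 172 peaks per Mb (interval 160 to 184), and that of chromosome 11 held 21.0 per Mb (17.1 to 25.6), so that the density was 8.18 times higher on chromosome 17 (interval of the ratio 6.64 to 10.2). The intervals of the densities do not overlap, but they are too narrow where peaks cluster. The variance of counts in bins of 100 kb was 9.27 times their mean on chromosome 17 and 1.34 times on chromosome 11. Peaks covered 1.77% of the band of chromosome 17 and 0.191% of that of chromosome 11. Among the 24 centromere bands of the primary chromosomes, chromosome 17 stood 8th in density and chromosome 11 stood 20th. Within the pentameric group the order was chromosome 1 (584 per Mb, 559 to 610), chromosome 17, chromosome 11 and chromosome X (13.0 per Mb, 10.2 to 16.3). Intervals of neighbours in that order did not overlap, with the same limit. There the variance was 16.2 times the mean on chromosome 1 and 10.1 times on chromosome X. The 22 other bands together held 171.4 peaks per Mb (169 to 174), an interval that lies within that of chromosome 17. This pooled value includes chromosome 13, with 3317 peaks at 1382 per Mb. The median density of the 24 bands was 80.3 per Mb, below chromosome 17 and above chromosome 11. How reads with several equally good positions were placed, which bears on any count in a repeat array, was not given in the sources used here, and neither was the removal of duplicate reads.

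**Figure D1:**
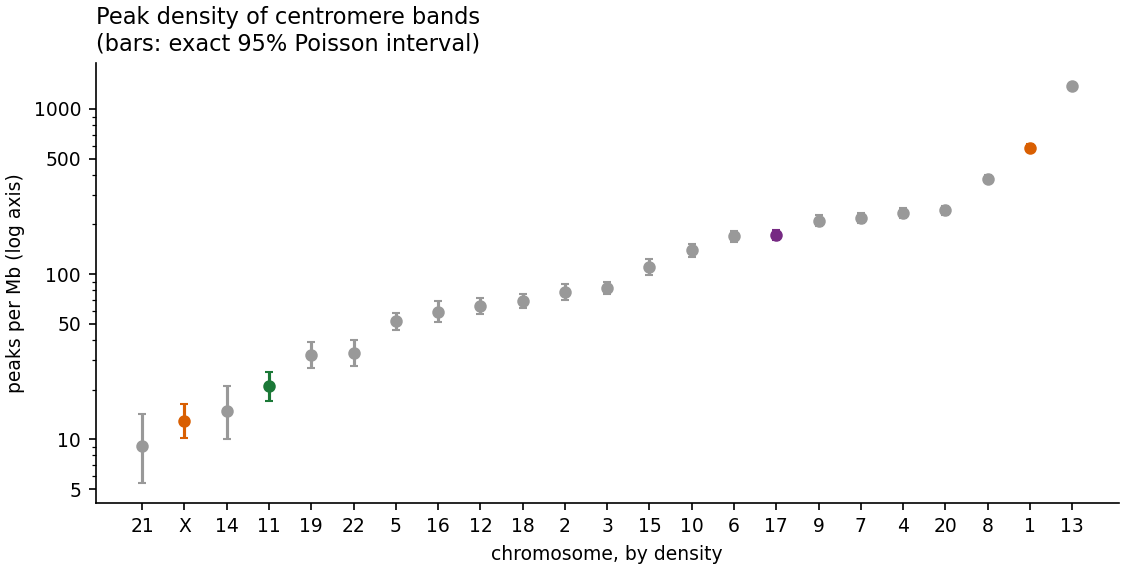
Peaks per Mb (log axis) in the centromere band of each chromosome with at least 1 peak, in order of density. Points are the counts of 1 peak list divided by band length and bars the exact 95% Poisson intervals. Chromosome 17 (purple) lies at 172 and chromosome 11 (green) at 21.0, between chromosomes 1 (584) and X (13.0), drawn in orange, and the other bands are grey.

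Peaks on chromosome 17 were also stronger. A peak was called strong at a −log10 q-value of 5 or more, where q is the value of the authors' peak caller adjusted over the genome. Chromosome 17 had 190 strong peaks of 809, or 23.5% (interval 20.6% to 26.6%), and chromosome 11 had 5 of 101, or 4.95% (1.63% to 11.2%), against 30.0% of the whole list. Chromosome 11 thus lay below both, and chromosome 17 lay below the whole list. The share was 51.4% on chromosome 1 and 18.9% on chromosome X, and among the 23 bands with a peak only chromosome 21, with 0 of 19, had a lower share than chromosome 11. At a q-value under 0.05 the shares were 84.4% (81.7% to 86.9%) on chromosome 17 and 73.3% (63.5% to 81.6%) on chromosome 11, against 79.3% of the list, so at this looser threshold chromosome 11 could not be told from the list within counting error.

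Fold over input, the deposited ratio between TRF2 pileup and input background at the summit as the authors' caller gave it, had a median of 4.39 on chromosome 17 (quartiles 3.71 and 5.17, range 2.02 to 34.0). On chromosome 11 the median was 3.90 (quartiles 3.41 and 4.39, range 2.76 to 7.05). The ranges overlapped, but the quartiles and the median were all higher on chromosome 17, whose median equalled the upper quartile of chromosome 11. A fold of 5 or more was reached by 223 peaks of chromosome 17 (27.6%) and 10 of chromosome 11 (9.90%), against 25.2% of the list. A fold of 8 or more was reached by 30 peaks of chromosome 17 (3.71%) and by 0 of 101 on chromosome 11. The exact interval for 0 of 101 reaches up to 3.59%, close to that share, so this contrast is weak. The share over the whole list was not computed at this fold. Chromosomes 1 and X had medians of 3.69 and 3.74, below both. Of the 23 bands with a peak, chromosome 17 had the second highest median, after chromosome 13 and level with chromosome 16 (4.39).

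**Figure D2:**
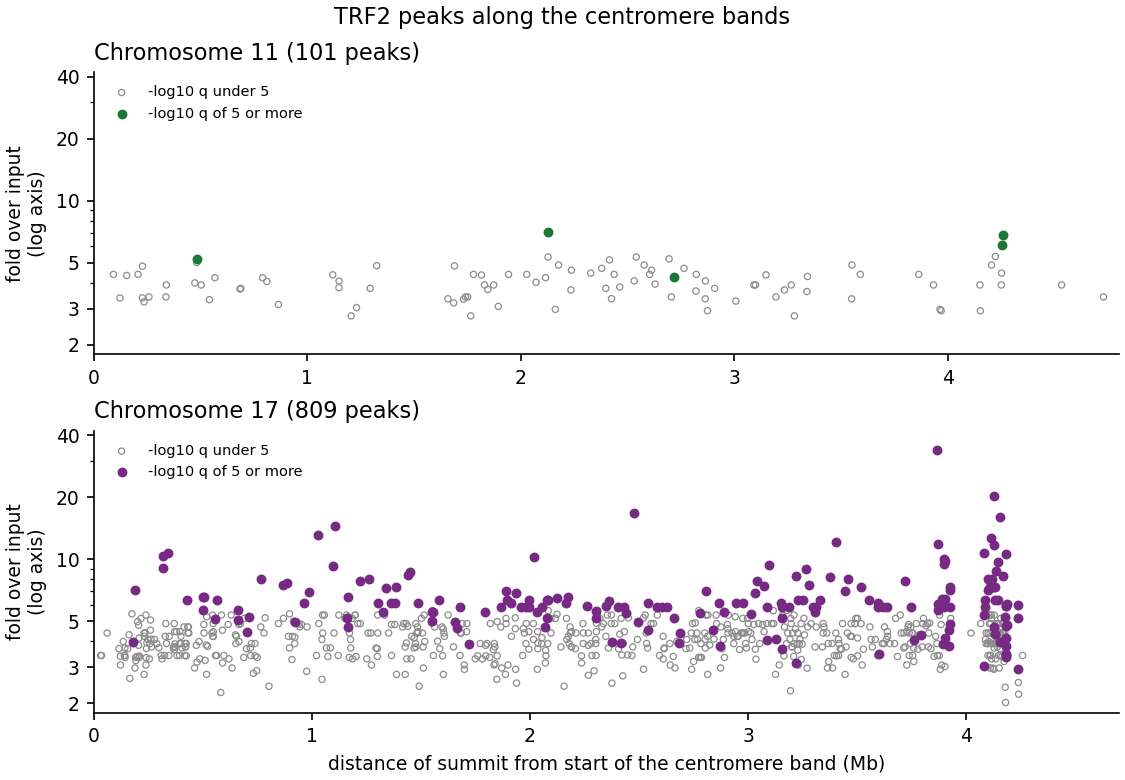
Fold over input at each summit (log axis) against the distance of the summit from the start of the centromere band, for chromosomes 11 (top) and 17 (bottom). Filled points have a −log10 q of 5 or more and open points less. On chromosome 11 no peak passes a fold of 7.05, while chromosome 17 has peaks up to 34.0 and a dense column of points near its long-arm end.

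The depth behind these folds was small for most peaks. The pileup, in reads at the summit, was worked back from each deposited fold and its p-value. Its median was 10 reads on chromosome 17 (quartiles 8 and 13, range 5 to 132) and 8 reads on chromosome 11 (quartiles 7 and 10, range 5 to 20). The input background is the value the caller used, which is not a raw count of input reads. Its median was 1.13 on both chromosomes, close to its genome-wide minimum of 1.05. At that minimum lay 34.5% of the peaks of chromosome 17 (31.2% to 37.9%) and 35.6% of those of chromosome 11 (26.4% to 45.8%), against 29.5% of the whole list. In this share chromosomes 11 and 17 stood 10th and 13th of the 23 bands with a peak, near the middle. Chromosome 1 stood 22nd with 0.453%, and its median peak had 27 reads over a background of 6.20.

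Peaks at the minimum background allow the chromosomes to be compared at the same background value. This minimum is a lower bound of that value, so the input reads at these peaks could still differ and are not known here. There a fold can take only set values, 3.41 for 6 reads, 3.90 for 7 and 4.39 for 8, so the medians of the chromosomes are steps of this ladder. Of 36 such peaks on chromosome 11, 2 had 10 or more reads (5.56%, interval 0.680% to 18.7%). Of 279 on chromosome 17, 79 did (28.3%, 23.1% to 34.0%). The same share over the whole list was not computed. Median depth at the minimum background was 7 reads on chromosome 11 and 8 on chromosome 17. It was 7 over the whole list and 8 over the 22 other centromere bands, so neither median stood apart. The most frequent depth was 7 reads on chromosome 11 (11 peaks) and 8 reads on chromosome 17 (60 peaks), and the deepest were 13 and 23 reads. The share of deeper peaks was thus higher on chromosome 17 also where the background value was the same, though not necessarily the input.

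**Figure D3:**
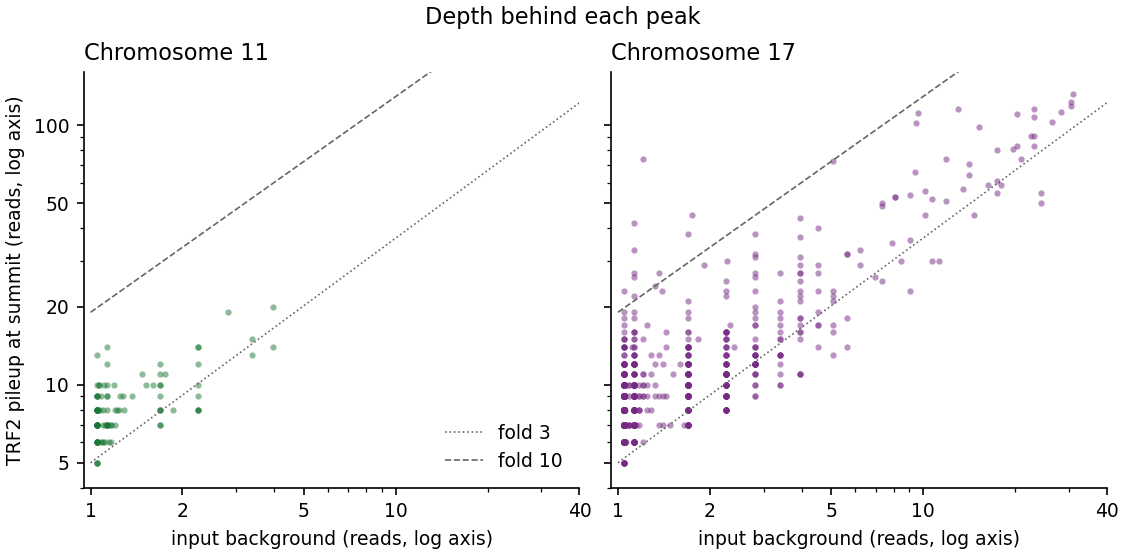
TRF2 pileup at the summit against input background, on log axes labelled in reads, for each peak of chromosomes 11 (left) and 17 (right). The background is the value the caller used and not a raw count of input reads. The lines mark folds of 3 (dotted) and 10 (dashed). All peaks of chromosome 11 lie at a background of 3.95 or less, while chromosome 17 has in addition a group of deep peaks at backgrounds up to 31.0.

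Chromosome 17 also carried deep peaks, which were not found on chromosome 11. A pileup of 50 reads or more was found at 39 of its peaks (4.82%, interval 3.45% to 6.53%), against 5.75% of the whole list, so this share was close to the background. On chromosome 11 it was found at 0 of 101, where the highest pileup was 20. The exact interval of that share reaches up to 3.59%, which overlaps the interval of chromosome 17. The background at these 39 had a median of 17.5 (1.21 to 31.0) and their fold a median of 4.30, near that of all peaks of the chromosome. Most deep peaks thus had a high background value as well, and 14 of the 39 reached a fold of 5. The 3 deepest were chr17:26603869-26603955 with 132 reads over a background of 31.0, chr17:25383745-25383828 with 123 over 30.5 and chr17:25569201-25569279 with 119 over 30.5. Their folds were 4.15, 3.94 and 3.81. Of the deep peaks 5 lay on the short-arm side of the band and 34 on the long-arm side.

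The peak of highest fold on chromosome 17 departed from this pattern. At chr17:26567033-26567127 it had 74 reads over a background of 1.21, which gave a fold of 34.0 and a −log10 q of 97.8, and it was the only deep peak with a background under 5. The next, chr17:26828317-26828432, had 42 reads and a fold of 20.2, and chr17:25178033-25178110 had 45 reads and a fold of 16.7. They were followed by chr17:26856815-26856926 (16.0) and by a pair on the short-arm side, chr17:23804552-23804629 (14.5) and chr17:23728610-23728700 (13.2). The remaining 4 of the first 10 had folds of 11.7 to 12.7 and lay on the long-arm side, chr17:26814995-26815167 (12.7), chr17:26101554-26101644 (12.2), chr17:26573027-26573125 (11.9) and chr17:26827727-26827822 (11.7). Of these 10 peaks, 4 lay between 26.8 and 26.9 Mb. The widest peaks were chr17:22988214-22988549 (336 bp), chr17:26885253-26885562 (310 bp) and chr17:23123331-23123616 (286 bp), and the first and last of these had folds of only 3.90 and 3.40.

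On chromosome 11 the ranking began at much lower values. The peak of highest fold, chr11:53127493-53127561, had 14 reads over a background of 1.13, a fold of 7.05 and a −log10 q of 7.83. It had a neighbour at chr11:53127164-53127238, 336 bp away by summit, with a fold of 5.33 and 10 reads, the closest pair of the chromosome. Next came chr11:55258065-55258244 (fold 6.83, 13 reads) and chr11:55253125-55253316 (fold 6.11, 12 reads), which were also its widest peaks, at 180 and 192 bp. The next widest was chr11:51790296-51790469 (174 bp, fold 4.23). A fold of 5.37 was found at chr11:55222072-55222202 and one of 5.33 at chr11:53540149-53540219. The remaining 4 of the first 10, at chr11:51482732-51482806, chr11:53693939-53694007, chr11:53414444-53414527 and chr11:51481975-51482043, had folds of 5.01 to 5.23. The deepest was chr11:53717047-53717215, with 20 reads over 3.95 and a fold of 4.24, followed by chr11:51482732-51482806 (19 reads) and chr11:53819666-53819734 (15 reads). The 5 strong peaks of chromosome 11 were spread over 4 places, since only the pair of widest peaks lay within 5 kb of each other.

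Widths were close to the resolution of the list. The smallest width in the list, 69 bp, was that of 37 of the 101 peaks on chromosome 11 (36.6%) and 162 of the 809 on chromosome 17, against 17.2% of the whole list. Median widths were 77 and 85 bp, against 124 bp on chromosome 1 and 104 bp over the whole list.

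Along the band, chromosome 11 was sparse throughout, and chromosome 17 was dense with a further concentration near its long-arm end. In bins of 100 kb, chromosome 11 had a peak in 37 of 48 bins, with a median of 2 and at most 6. The variance of its counts was 1.34 times their mean. Chromosome 17 had a peak in 43 of 47 bins, with a median of 17 and a maximum of 87, and its 4 empty bins were the last of the band. Its variance was 9.27 times the mean, and 3.34 times without the bin of 87. The bin of 87 spanned 26.8 to 26.9 Mb, and the next fullest bin held 27. Of the 3500 windows of 100 kb on primary chromosomes that held a peak, 32 held more than 87, up to 234, so a window of this density was not the extreme of the genome.

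**Figure D4:**
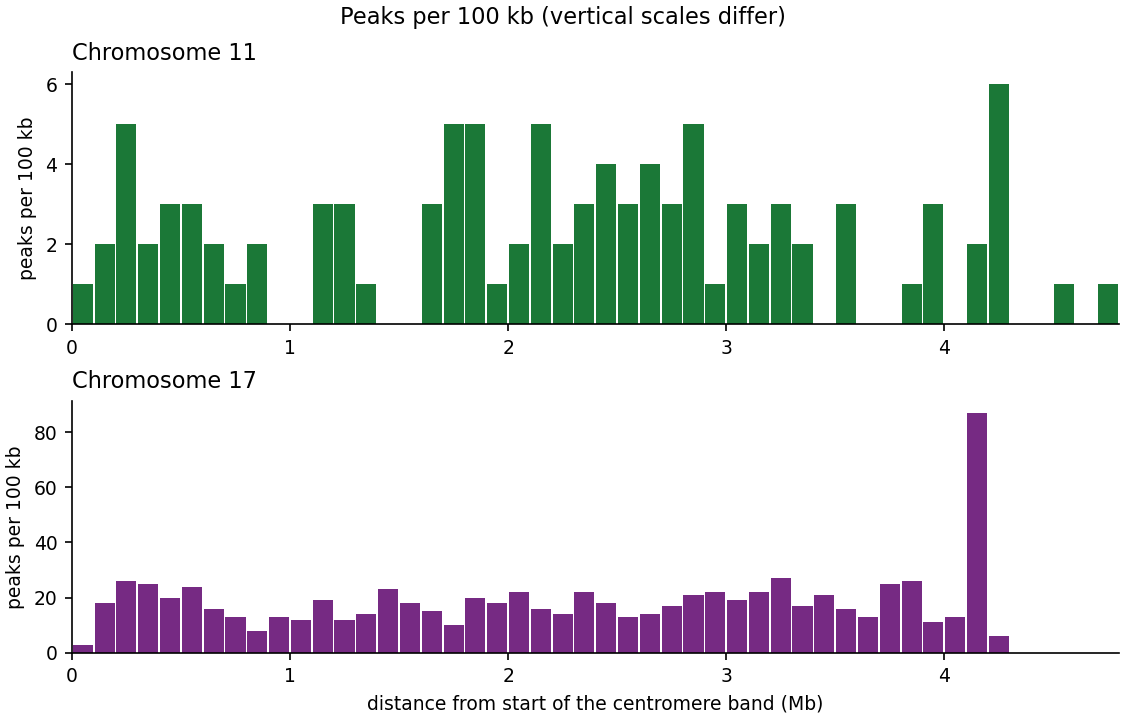
Number of peaks in each 100 kb bin from the start of the centromere band, for chromosomes 11 (top) and 17 (bottom), with different vertical scales. Chromosome 11 has 0 to 6 peaks in a bin. Chromosome 17 has a bin of 87 and otherwise at most 27, and its last 4 bins are empty.

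The concentration on chromosome 17 was a single run. When summits at most 5 kb apart were chained together, a limit set after the positions had been seen, the longest chain held 98 peaks (12.1% of the chromosome's) in 103 kb, from 26782999 to 26885958. The second longest held 13 peaks. The run had 37 strong peaks (37.8%, interval 28.2% to 48.1%), a median fold of 4.39 and a highest fold of 20.2. That interval holds the 30.0% of the whole list, so in strong peaks the run could not be told from the list. Its long-arm end, from position 26880998 on, held 11 of its 12 deep peaks, among them chr17:26881295-26881542 with 111 reads over 9.59 (fold 10.6) and chr17:26885730-26885958 with 115 reads over 23.1 (fold 4.81). Beyond the run only 6 peaks lay in the remaining 0.514 Mb of the band, the last at chr17:26959000-26959069 with 6 reads. Before it the density was 173 peaks per Mb over 4.08 Mb. Without the run the density of chromosome 17 was 155 per Mb, still 7.35 times that of chromosome 11 (interval 5.96 to 9.15). On chromosome 11 the longest chain held 4 peaks, from 55249818 to 55258244, and 71 of its 101 peaks had no other within 5 kb.

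The long-arm side of the band had the larger share of strong peaks on chromosome 17. There 118 of 408 peaks were strong (28.9%, interval 24.6% to 33.6%), against 72 of 401 on the short-arm side (18.0%, 14.3% to 22.1%). Without the run the long-arm side had 81 of 310 (26.1%, 21.3% to 31.4%), whose interval overlaps that of the short-arm side. Densities of the sides were 177 (161 to 195) and 167 (151 to 184) per Mb, which overlap. On chromosome 11 the sides had 19.6 (14.4 to 26.0) and 22.5 (16.9 to 29.4) peaks per Mb, with 3 and 2 strong peaks, so the sides could not be told apart at this depth.

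Distances between neighbouring summits differed by an order of magnitude, as the densities imply. The median was 2.87 kb on chromosome 17 (quartiles 0.960 and 6.99 kb) and 27.1 kb on chromosome 11 (10.0 and 52.6 kb). On chromosome 17, 212 of 808 neighbours (26.2%) were within 1 kb, and on chromosome 11, 5 of 100. The largest stretches without a summit on chromosome 11 were 334 kb (52324537 to 52658055), 275 kb (55258088 to 55532665) and 274 kb (54589244 to 54863302). On chromosome 17 they were 92.9 kb (26629364 to 26722284), 54.6 kb (22760468 to 22815105) and 51.1 kb (26885774 to 26936842), the last of which begins where the run ends.

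**Figure D5:**
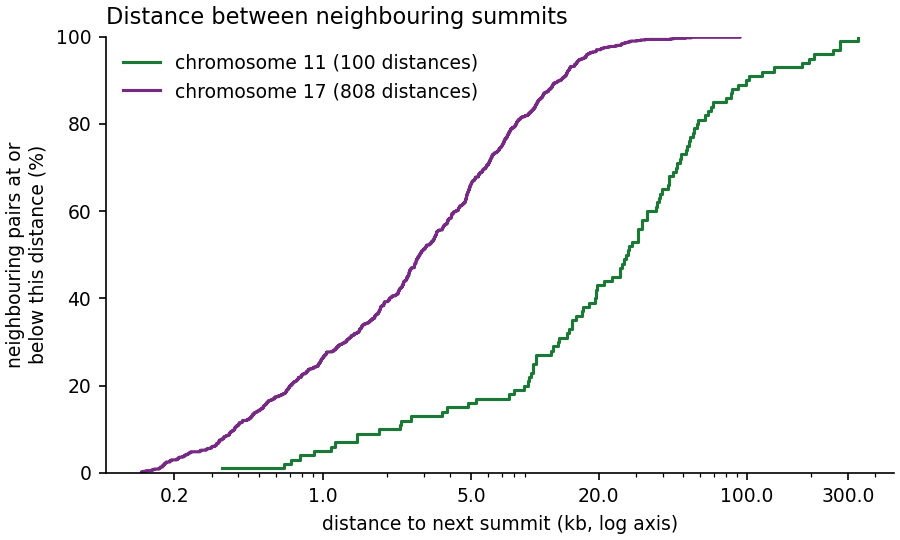
Cumulative share of neighbouring summit pairs (vertical, %) at or below a given distance (horizontal, kb, log axis) for chromosomes 11 (green) and 17 (purple). The curve of chromosome 17 rises earlier, with a median of 2.87 kb against 27.1 kb.

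Since alpha satellite repeats at a fixed period, all distances between summits up to 10 kb were searched for a preferred value. On chromosome 17 the most common 100 bp bin was 300 to 400 bp, with 47 of 2177 pairs (2.16%), where an even spread would give 1.00%. The next fullest bin held 37 pairs and the median bin 21. Outside the run the bin held 40 of 1338 pairs (2.99%) and within it 7 of 839 (0.834%). Distances within 20 bp of a whole multiple of the alpha satellite monomer made up 25.9% of the pairs, where an even spread would give 24.0%. On chromosome 11 only 29 pairs lay within 10 kb, the fullest bin held 2, and 5 pairs (17.2%) lay near a multiple of the monomer. Pairs share summits and are not independent, so these shares describe the list only. The fullest bin was picked from the same pairs, so it exceeds an even spread by construction and does not by itself show a preferred distance. Within the run its share was below that of an even spread. The chromatin was also sheared to 300 to 400 bp, and a link to this bin was not tested. On chromosome 11 no preferred distance was detectable with so few pairs.

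Almost all of these peaks lay far from genes. Between the pseudogene WEE1P2 (22704119 to 22705636) and the pseudogene LOC100422478 (26981692 to 26982282), chromosome 17 has 4.28 Mb with no gene in the RefSeq table, and 809 of its 809 peaks lay there. The nearest summits were 25.6 kb from WEE1P2 and 22.7 kb from LOC100422478. Of 18 genes in the band, 0 held a summit and 0 had one within 3 kb. WSB1, which encodes a substrate receptor of a ubiquitin ligase and is the only protein-coding gene of the band, was 335 kb from the nearest peak. So was the microRNA gene MIR4522 beside it.

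Chromosome 11 was different in that some of its peaks lay among the genes of its long-arm side. On chromosome 17 the 17 genes of that side all came after the last peak. The first 3.59 Mb of the band of chromosome 11 hold no annotated gene and held 87 of the 101 peaks (24.2 per Mb). From the first gene on, the band held 14 peaks in 1.21 Mb (11.6 per Mb), 2 of them strong. The 42 genes there comprise 39 olfactory receptor genes and pseudogenes, which belong to the family of odorant-sensing receptors of the nose, 2 TRIM genes and 1 other pseudogene. A summit lay within 3 kb of 2 of the 39 olfactory receptor loci. One was inside OR5D3 (55723776 to 55729621), at chr11:55728261-55728357 with 6 reads, a fold of 3.41 and a −log10 q of 0.811, near the lower limit of the list. The other was 2.24 kb before the pseudogene OR4C50P (54591480 to 54592406), at chr11:54589193-54589261 with 8 reads and a fold of 4.39. OR4C46 and OR4C7P, the next loci, had no summit within 13.8 and 45.7 kb, and the median distance over the 39 was 65.0 kb. Both peaks thus had few reads.

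The strongest peaks among these genes lay beside TRIM48, a gene of the tripartite motif family (55262155 to 55271114). The summit of chr11:55258065-55258244 (fold 6.83) was 4.07 kb from the gene, and that of chr11:55253125-55253316 (fold 6.11) lay farther out. With 2 weaker peaks of fold 3.90 and 4.46 they formed the chain of 4 named above. The other TRIM locus, TRIM51HP, was 35.6 kb from the same peak, and LOC100420446, the remaining pseudogene, was 44.2 kb away. No peak of either band overlapped a RefSeq promoter window, of which the table holds 11 in the band of chromosome 11 and 6 in that of chromosome 17.

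The edges of the bands do not cut through dense parts of the list. On chromosome 11 the first summit inside was 91.1 kb from the edge (fold 4.39, 8 reads) and the last outside was 206 kb away (fold 4.39, 8 reads). At its long-arm edge these distances were 71.7 kb inside (fold 3.41) and 44.8 kb outside (fold 2.93, 5 reads). On chromosome 17 the first summit inside was 31.2 kb from the edge (fold 3.41, 6 reads) and the last outside was 179 kb away (fold 3.61, 76 reads over 20.3). At the long-arm edge the last summit inside was 441 kb from the edge (fold 3.41), and the first outside was 3491 kb beyond it (fold 3.41).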

How the data were processed

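Peaks of 1 TRF2 immunoprecipitated library over 1 input library were deposited by the authors. Per the submitters' processing notes the tools included MACS2 2.1.0, Bowtie2 2.3.2, ChIPseeker 1.36.0 and HOMER, and the builds hg38 and GRCh38. Settings, filters and duplicate removal were not given in the sources used here. Fold, as deposited by the authors, is a ratio of pileup over input background at the summit. Each −log10 q-value was deposited by the authors beside a −log10 p-value, whose lowest value was 3.01. The deposited summit offset gave the position of each peak.

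Pileup and background were recovered from fold, (pileup + 1)/(background + 1), and p, an upper Poisson tail, within 0.001 on −log10 p for 100% of 24258 peaks. The total reads of each library were not given in the sources used here. Recovery, spacing search and Poisson intervals were tested on simulated data. Bands came from circlize 0.4.16 (R 4.3.3), genes and promoter windows from RefSeq (GRCh38.p14). Coordinates are 1-based. Monomer multiples used 171 bp ± 20 bp. Intervals are exact Poisson, exact binomial (Clopper-Pearson) or, for ratios of densities, exact conditional binomial. No test between samples was possible. Planned sequence features were not analysed here.

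Named peaks are, on each chromosome, the 10 of highest fold, 3 deepest and 3 widest and those at the band edges. Named genes are those with a summit, and up to 4 per family with one within 3 kb and 2 without. WSB1, MIR4522 and 2 further deep peaks of the run were named after their values were seen. The members, measures and alternatives were chosen with earlier results of these data known. Software was pandas 2.3.3, scipy 1.17.1, matplotlib 3.10.9 and numpy 2.4.6 under Python 3.11.15.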

Additional observations from a re-analysis of the deposited data

How the results depend on the processing

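Of 27 alternative values for 7 results, 16 stayed within the interval of the reported value and 11 moved outside it. Only the ratio of densities compares the chromosomes within a single value, and it was 6.20 or more in each of its alternatives. The other results are values of a single chromosome with no direction to reverse, and some moved because the threshold itself was changed. The density of chromosome 17 over that of chromosome 11 was 38.8 with strong peaks alone, 22.8 with peaks of fold 5 or more and 6.20 with peaks within 1 kb merged, which reduced chromosome 17 to 583 loci and chromosome 11 to 96. At a −log10 q of 10 or more, 10.4% of peaks passed on chromosome 17 (8.37% to 12.7%) and 0% on chromosome 11 (up to 3.59%). The share over the whole list was not computed at this threshold. At a q-value under 0.05, 84.4% and 73.3% passed. Median fold with that q filter was 4.46 on chromosome 17 and 4.31 on chromosome 11, and with background above its minimum 4.16 (4.09 to 4.23) and 3.99 (3.73 to 4.24), whose intervals overlap. The share of pairs in the most common distance bin of chromosome 17 was 1.11% with pairs up to 20 kb. An even spread would give 0.5% there, and the bin held the same 47 pairs. Leaving out the run of 98 peaks was an alternative added after seeing the data. It kept the density ratio and the strong share and median fold of chromosome 17 within their intervals. The share of pairs in the most common distance bin of chromosome 17 was 2.99% outside the run. That is above the interval of its reported value (1.59% to 2.86%), and it is not counted among the 27 alternatives. Median pileups of 8 reads on chromosome 11 and 10 on chromosome 17 limit the precision of each fold, and peaks under a −log10 p of 3.01 are not in the list.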

Other observations

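The number of peaks beside the bands was also counted. In the 2 Mb on the short-arm side of the band, 114 peaks were found on chromosome 17, a density of 57.0 per Mb (47.0 to 68.5, exact Poisson), and 69 of them were strong, with a median fold of 4.90 and a highest fold of 14.3. Chromosome 11 had 17 there (8.50 per Mb, 4.95 to 13.6), of which 2 were strong, with a median fold of 3.90. Over the whole list 30.0% of peaks were strong. In the 2 Mb on the long-arm side, chromosome 17 had 0 peaks (exact upper bound 1.84 per Mb), and chromosome 11 had 5 (2.50 per Mb, 0.812 to 5.83), and these intervals overlap. No pair of libraries was available to test these differences.

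Among distances up to 10 kb, 31.2% of 218 pairs on chromosome X and 24.3% of 14511 on chromosome 1 were near a multiple of the alpha satellite monomer, against 24.0% for an even spread. Neighbouring deep peaks at chr17:26882512-26882588 and chr17:26882664-26882747 had the same 53 reads over the same background of 8.10.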
